A study of Mus musculus with 8 samples.

Results

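The genes of the Tpl2 signalling complex and of the MEK and ERK kinases below it were followed in mouse macrophages grown from bone marrow. The named genes were Map3k8, which encodes the kinase Tpl2, Nfkb1 and Tnip2 for its partners p105 and ABIN2, Map2k1 and Map2k2 for the kinases MEK1 and MEK2, Mapk3 for the kinase ERK1, and Ksr1 for a scaffold of the RAF, MEK and ERK kinases. They were found in the array's annotation by symbol: a probe set counted for a gene where it was paired with that symbol and no other, and the brightest such probe set, by its mean over the 8 arrays, gave the gene's value. This gave values for 5 of the 7 named genes, from 8 of 45101 probe sets, among 18193 genes in all. Nfkb1 and Mapk3 were not analysed here.

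In resting macrophages Tpl2 is held in a complex with p105 and ABIN2, which stabilise the kinase and keep it from its substrate MEK. After a toll-like receptor signal, the IKK kinases phosphorylate p105, p105 is degraded, and freed Tpl2 phosphorylates MEK1 and MEK2, which phosphorylate the ERK kinases. Tpl2 is known in macrophages as the main route from toll-like receptors to ERK, whereas growth factor receptors reach MEK through RAS and the RAF kinases. These arrays measure mRNA and say nothing of the amount or the activity of the proteins.

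The arrays form 4 groups of 2: Tpl2-deficient macrophages with LPS, wild-type macrophages with LPS, Tpl2-deficient macrophages without stimulation and wild-type macrophages without stimulation. LPS, a component of the bacterial cell wall that is sensed by toll-like receptor 4, came from Escherichia coli 0111:B4 and was used at 1 μg/mL. Its duration is not assigned to these arrays in the labels. All cells had been grown for 7 to 10 days in macrophage colony-stimulating factor at 10 ng/mL and purified by adherence. The labels give no allele, strain, sex or age, and "biological replicate" in the array titles does not say that separate animals were used. The p-values therefore measure only the spread between these samples.

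Values are log2 RMA intensities, in which a step of 1 is a 2-fold change of signal. Changes are log2 differences ± standard error, estimated by limma with all 8 arrays in the fit; the threshold was an adjusted p of 0.05 (Benjamini-Hochberg, 18193 genes). With 2 arrays a group, precision is limited by their number. The LPS-treated Tpl2-deficient arrays differed more from each other than the arrays of the other groups did, with a median SD over probe sets of 0.125 against 0.0713 to 0.074, while the fit assumes 1 spread for a gene in all groups. All 10 macrophage markers measured lay above the array median in every group, with a mean for the receptor Csf1r of 14.48 to 14.80. Of 8 neutrophil markers 6 lay under the median in every group, as did 4 of 5 B cell and 3 of 4 erythroid markers. Other lists were less often under it: with LPS, 3 of 6 T and NK cell, 2 of 6 dendritic cell and 3 of 7 stromal markers in each genotype, and without stimulation 4, 3 and 4 of them. Of the stromal list, the receptor gene Pdgfrb averaged 10.16 in LPS-treated Tpl2-deficient, 8.96 in LPS-treated wild-type, 5.21 in unstimulated deficient and 5.12 in unstimulated wild-type cells. The part of these cell types in the results was not tested.

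Map3k8 is the gene that the Tpl2-deficient mice lack in function, and its signal was lower in deficient cells in both conditions. With LPS it was 9.83 and 10.09 in Tpl2-deficient cells, against 11.01 and 10.91 in wild-type cells. Without stimulation it was 8.32 and 8.23 in Tpl2-deficient cells, against 9.27 and 9.28 in wild-type cells. The 4 groups did not overlap at any step of their order, which ran from unstimulated deficient cells through unstimulated wild type and LPS-treated deficient cells to LPS-treated wild type. The deficient cells lay below wild type by the same step in each condition, -1.0 ± 0.11 with LPS (95% interval -1.25 to -0.75, adjusted p = 0.000125) and -0.998 ± 0.113 without it (-1.25 to -0.75, adjusted p = 0.00237). LPS raised the signal by 1.68 ± 0.11 in Tpl2-deficient cells (adjusted p = 2.74e-07) and by 1.69 ± 0.11 in wild-type cells (adjusted p = 2.47e-07). The difference of these responses was -0.00 ± 0.16, with a 95% interval of -0.35 to 0.35. A single probe set measured the gene, its position relative to the deleted part of the gene is not given, and its lowest value lay 1.70 above the median of its array. The signal in deficient cells therefore does not show whether an intact transcript remained.

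**Figure D1:**
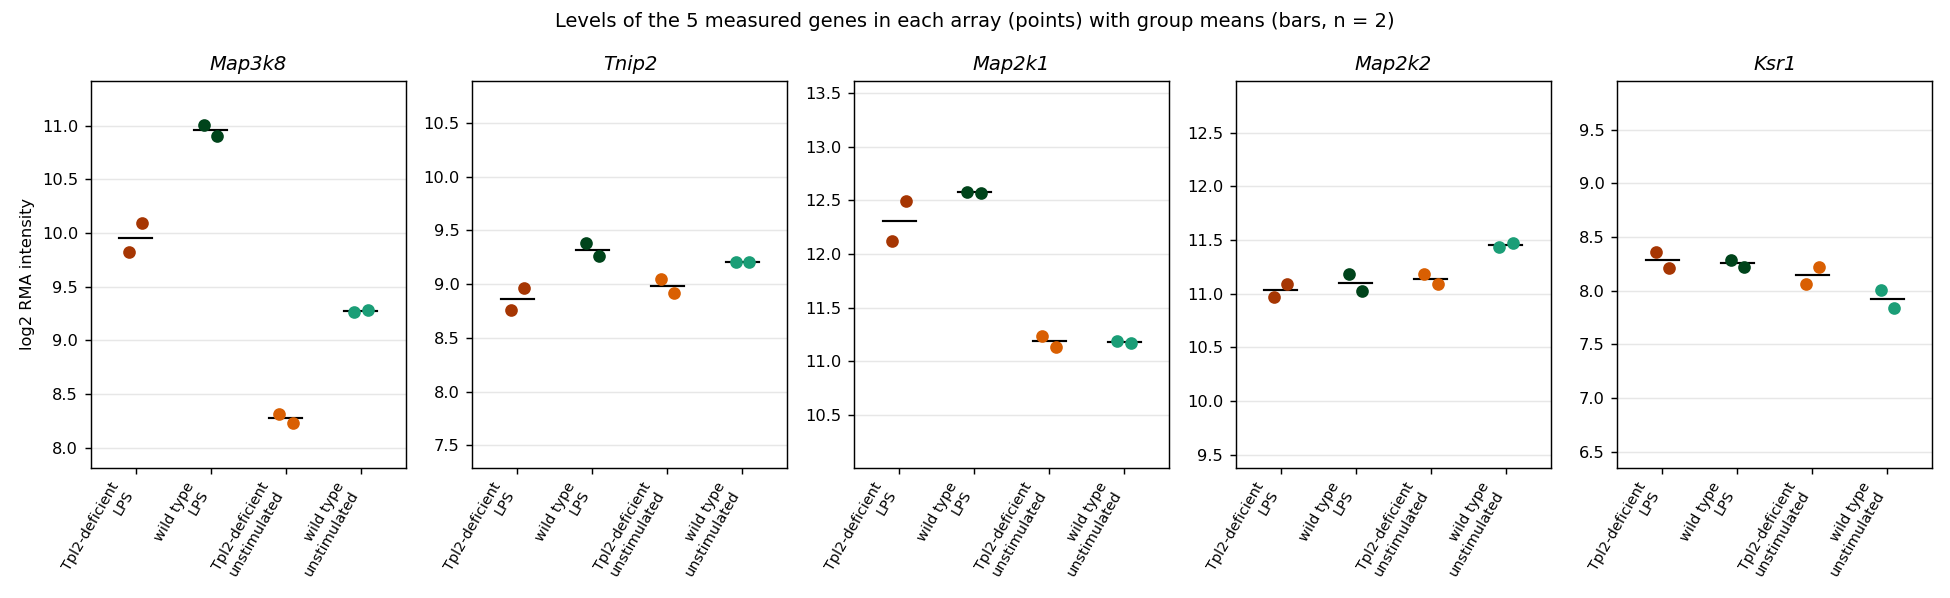
Log2 RMA intensity of the 5 measured genes in each array (points, n = 2 per group) with group means (bars). Groups run from LPS-treated Tpl2-deficient and wild-type cells to unstimulated Tpl2-deficient and wild-type cells, and every panel spans the same number of log2 units. Map3k8 separates all 4 groups, from 8.23 at the lowest to 11.01 at the highest, and Map2k1 separates both LPS-treated groups from both unstimulated groups.

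Tnip2 encodes ABIN2, an adaptor that binds p105 and Tpl2 and is needed for the stability of the Tpl2 protein. With LPS it read 8.76 and 8.97 in Tpl2-deficient cells, against 9.38 and 9.26 in wild-type cells. Without stimulation it read 9.05 and 8.92 in Tpl2-deficient cells, against 9.20 and 9.20 in wild-type cells. Both deficient arrays lay below both wild-type arrays in each condition. Under LPS the difference passed at -0.46 ± 0.11 (1.38-fold lower, adjusted p = 0.0174), and at rest it was -0.22 ± 0.11 and did not pass (95% interval -0.46 to 0.02, adjusted p = 0.417). LPS itself gave -0.12 ± 0.11 in Tpl2-deficient cells (adjusted p = 0.419) and 0.12 ± 0.11 in wild-type cells (adjusted p = 0.395), values of opposite sign of which neither passed. Their difference, -0.24 ± 0.16, did not pass (95% interval -0.58 to 0.10, adjusted p = 0.403). The LPS call for Tnip2 stands close to the threshold: it held in 13 of 20 settings, with log2 differences of -0.57 to -0.36 in all 20. It was lost with the spike-ins as the scale (adjusted p = 0.0503), with array weights, with only the arrays compared and with the 2-fold minimum. Leaving out either wild-type LPS replicate or Tpl2-deficient LPS replicate 1 also lost it.

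Map2k1, which encodes MEK1, rose with LPS in both genotypes. It read 12.12 and 12.50 in LPS-treated and 11.24 and 11.13 in unstimulated Tpl2-deficient cells. In wild-type cells it read 12.58 and 12.56 with LPS, and 11.19 and 11.17 without. All 4 LPS-treated arrays lay above all 4 unstimulated arrays, and the wild-type LPS arrays above the deficient ones. The LPS rise was 1.12 ± 0.13 in Tpl2-deficient cells (2.18-fold, adjusted p = 1.95e-05) and 1.40 ± 0.13 in wild-type cells (2.63-fold, adjusted p = 2.72e-06). Between the genotypes the difference was -0.27 ± 0.13 under LPS (95% interval -0.54 to 0.01, adjusted p = 0.231) and 0.01 ± 0.13 at rest (-0.27 to 0.29, adjusted p = 0.987), and neither passed. The difference of the LPS responses, -0.27 ± 0.18, did not pass either (-0.67 to 0.12, adjusted p = 0.403). Both values depended on the LPS-treated Tpl2-deficient array that was kept, since these 2 arrays disagreed. Without replicate 2 the difference under LPS was -0.46 and that of the LPS responses -0.46. Without replicate 1 they were -0.075 and -0.084.

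Map2k2, which encodes MEK2, a close relative of MEK1 with the same substrates, did not rise with LPS. It read 10.97 and 11.09 in LPS-treated and 11.18 and 11.09 in unstimulated Tpl2-deficient cells. In wild-type cells it read 11.19 and 11.02 with LPS, and 11.44 and 11.47 without, so that the unstimulated wild-type arrays stood above the other 6 and the other 3 groups overlapped in their order. LPS lowered it in wild-type cells by 0.35 (1.28-fold, adjusted p = 0.0158), and in Tpl2-deficient cells the change was -0.105 ± 0.105 (95% interval -0.34 to 0.13, adjusted p = 0.474). The difference of the responses was 0.25 ± 0.15 and did not pass (-0.08 to 0.57, adjusted p = 0.367). Between the genotypes it was -0.07 ± 0.10 under LPS (adjusted p = 0.768) and -0.32 ± 0.10 at rest (95% interval -0.55 to -0.09, adjusted p = 0.24). The interval at rest does not reach 0, but the adjusted p over all genes missed the threshold.

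The other Map2k2 probe set did not show the wild-type fall. It stayed between 9.23 and 9.33 in all 8 arrays, and its LPS change came to 0.01 ± 0.10 in Tpl2-deficient and 0.04 ± 0.10 in wild-type cells (adjusted p = 0.957 and 0.756 over all probe sets). With the mean of both probe sets the wild-type fall was -0.15 and did not pass (adjusted p = 0.138). It was also lost without wild-type unstimulated replicate 1 (adjusted p = 0.0576), wild-type unstimulated replicate 2 (0.0819) or wild-type LPS replicate 2 (0.136).

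The upstream sequences of the MEK genes are shown because MEK1 mRNA rose with LPS in both genotypes while MEK2 mRNA did not. Each is the 250 bases before the RefSeq start of the gene on build GRCm38.p6, on the gene's own strand, at chr9:64253606-64253855 on the minus strand for Map2k1 and chr10:81105665-81105914 on the plus strand for Map2k2. Capitals mark the half-site TGACG of the cAMP response element on either strand.
Map2k1: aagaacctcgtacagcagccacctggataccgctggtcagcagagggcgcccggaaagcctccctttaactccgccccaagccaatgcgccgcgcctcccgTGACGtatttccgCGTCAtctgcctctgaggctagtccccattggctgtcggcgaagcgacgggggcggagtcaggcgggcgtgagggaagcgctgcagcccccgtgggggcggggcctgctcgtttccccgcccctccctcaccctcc
Map2k2: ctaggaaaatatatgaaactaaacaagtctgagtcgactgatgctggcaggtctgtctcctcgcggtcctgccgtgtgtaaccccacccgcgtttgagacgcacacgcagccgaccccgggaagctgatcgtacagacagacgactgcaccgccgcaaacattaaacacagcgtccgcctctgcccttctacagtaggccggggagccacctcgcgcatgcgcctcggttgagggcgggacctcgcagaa
The Map2k1 window held 2 half-sites, 149 to 145 bases before the start on the gene's strand and 136 to 132 bases before it on the opposite strand, and the Map2k2 window held 0. Of 32851 mouse windows of the same length, 17.8% held at least 1. Neither window held the AP-1 motif TGANTCA, found in 6.75% of all windows, or the kappa B consensus, found in 7.25%; both strands were searched and the 3 motifs could overlap. G and C made up 68.4% of the Map2k1 window and 59.6% of the Map2k2 window, against a median of 52.4% over all windows. A match or its absence in these letters does not show whether a factor binds there. RefSeq windows were matched for 4 of the 5 measured genes; those of Tnip2 and Ksr1 are not shown. The Tnip2 window held 0 matches of the 3 motifs. Of the 2 windows of Ksr1, 1 held a half-site 149 to 145 bases before the start and the other an AP-1 match 230 to 224 bases before it. A half-site was thus not found in the Map2k1 window alone. The part of these motifs in the LPS changes was not tested.

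Ksr1, the scaffold that brings RAF, MEK and ERK kinases together, differed little between the groups. It read 8.36 and 8.21 in LPS-treated and 8.06 and 8.22 in unstimulated Tpl2-deficient cells. In wild-type cells it read 8.29 and 8.22 with LPS, and 8.01 and 7.84 without. The unstimulated wild-type arrays were the lowest, and the other 3 groups overlapped in their order. LPS raised Ksr1 in wild-type cells by 0.33 ± 0.11 (1.26-fold, adjusted p = 0.0276), and in Tpl2-deficient cells the change was 0.15 ± 0.11 (95% interval -0.10 to 0.39, adjusted p = 0.338). The difference of these responses was -0.19 ± 0.16 (adjusted p = 0.542). Between the genotypes Ksr1 differed by 0.04 ± 0.11 under LPS (95% interval -0.21 to 0.28, adjusted p = 0.908) and by 0.22 ± 0.11 at rest (-0.03 to 0.47, adjusted p = 0.422).

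Of the other Ksr1 probe sets, 1 ran close to the brightest: 8.20 and 8.36 in LPS-treated Tpl2-deficient cells, 8.20 and 8.23 in LPS-treated wild type, 8.09 and 8.12 in unstimulated deficient cells, and 8.03 and 7.87 in unstimulated wild type. Its wild-type LPS change of 0.26 ± 0.11 missed the threshold (adjusted p = 0.07 over all probe sets). The remaining probe set lay under the array median in every group, at 5.94 to 6.32, and ran the other way. It read 5.997 and 5.939 in LPS-treated and 6.246 and 6.32 in unstimulated Tpl2-deficient cells, a change of -0.32 ± 0.11 (adjusted p = 0.0354), and its wild-type change was -0.05 ± 0.11. The wild-type Ksr1 rise was called in 14 of 22 settings, with values from -0.05 to 0.56, and was lost with the mean of the probe sets (0.18, adjusted p = 0.109), with the spike-ins as the scale (0.20, adjusted p = 0.297), and without wild-type unstimulated replicate 2 (adjusted p = 0.197), wild-type LPS replicate 1 (0.133) or wild-type LPS replicate 2 (0.072).

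**Figure D2:**
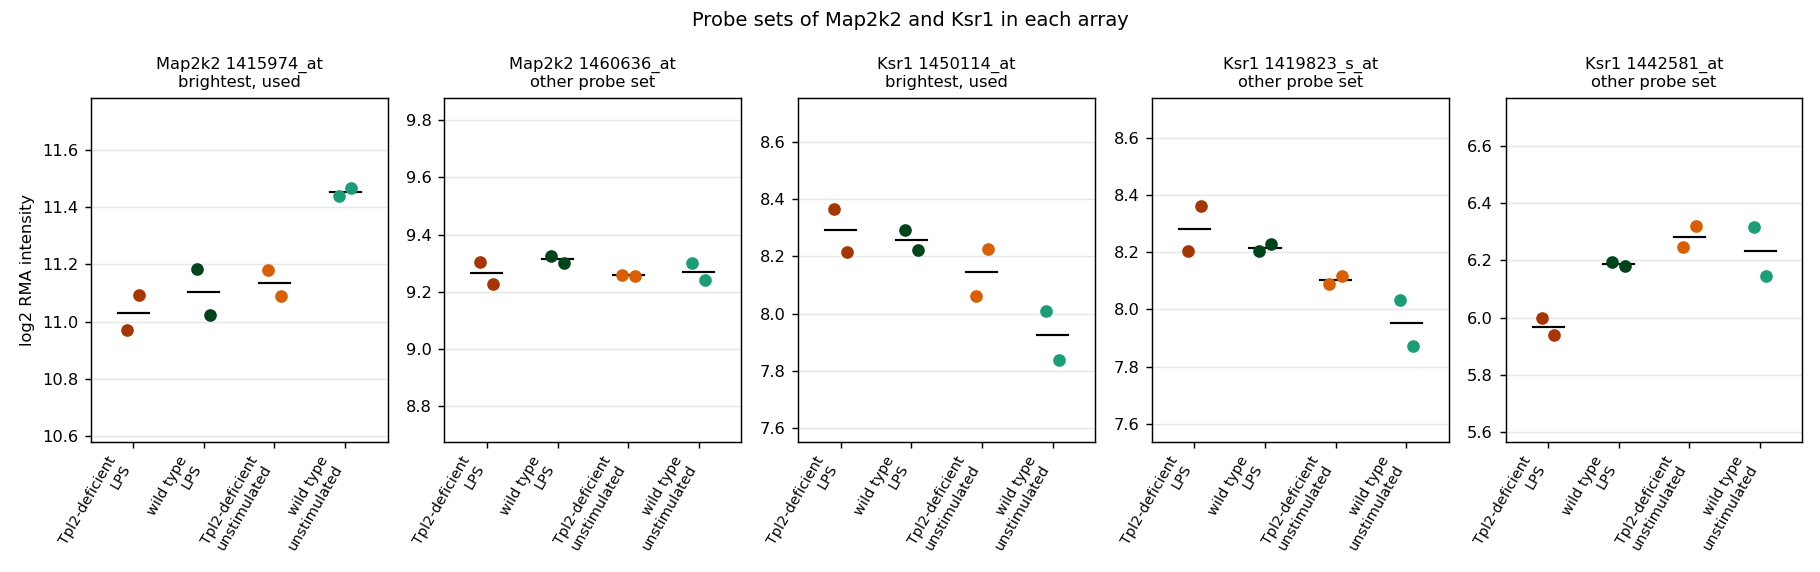
Log2 RMA intensity of each probe set of Map2k2 and Ksr1 in each array (points, n = 2 per group) with group means (bars); all panels span the same number of log2 units. The second Map2k2 probe set stays between 9.23 and 9.33 in all groups, and the dimmest Ksr1 probe set, under the array median, is lowest in LPS-treated Tpl2-deficient cells.

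Each count of members called was set beside the share of all genes called in the same comparison. Under LPS, 2 of 5 members differed between the genotypes, both lower in Tpl2-deficient cells, where 13.7% of all genes were called and 5.73% were called lower. At rest 1 of 5 was called, lower, where 0.5% of all genes were called and 0.346% were called lower. LPS changed 2 of 5 members in Tpl2-deficient cells, both upward, where 41.8% of all genes were called. In wild-type cells it changed 4 of 5, with 3 up and 1 down, where 52.2% of all genes were called, 21.3% up and 30.9% down. The difference of the LPS responses passed for 0 of 5 members, where limma called 8.59% of all genes; 0 of the members had an unadjusted p under 0.05 for it, against 22.9% of all genes. The arrays of the groups did not overlap for 3 of 5 members between the genotypes under LPS (46.6% of all genes), 4 of 5 at rest (53.1%), 2 of 5 for LPS in Tpl2-deficient cells (66.7%) and 5 of 5 for LPS in wild-type cells (80.3%). With 5 genes, 1 of them the targeted gene, these shares say little about the members as a group. The median log2 difference of the 5 members was -0.27 between the genotypes under LPS and -0.22 at rest, beside 0.02 and -0.00 over all genes, and their median LPS change came to 0.15 in Tpl2-deficient and 0.33 in wild-type cells, beside 0.00 and 0.04 over all genes. Comparisons that use the same arrays are not independent of each other: LPS-treated deficient arrays, for instance, enter both the genotype comparison under LPS and the LPS response of deficient cells.

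**Figure D3:**
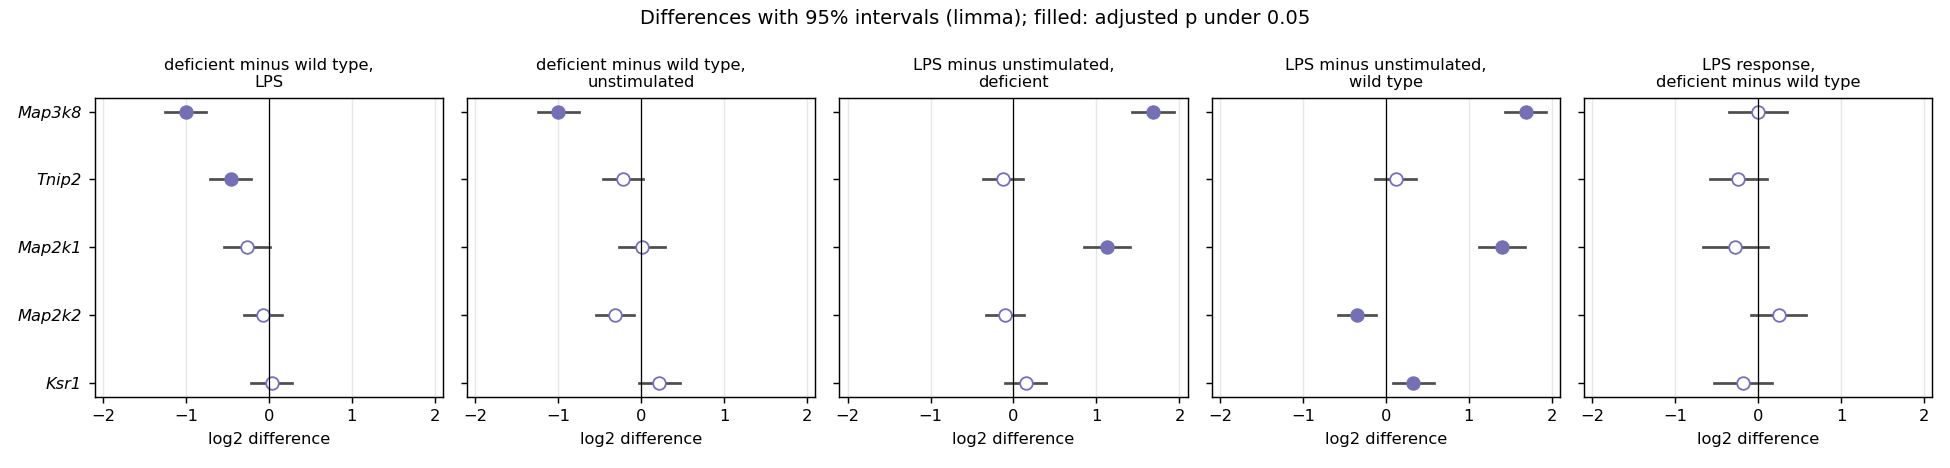
Log2 differences (points) with 95% intervals (lines) from limma for the 5 members in the 5 comparisons; filled points have an adjusted p under 0.05. Map3k8 is lower in Tpl2-deficient cells in both conditions, 2-fold in each, its LPS rise is near 1.7 log2 units in both genotypes, and 0 of the 5 intervals for the difference of the LPS responses leave out 0.

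Profiles like those of the members were sought as the smallest root mean square difference of log2 values over the 8 arrays, after each gene's own mean was subtracted. For Map3k8 the closest were Sema3c, a secreted semaphorin (0.259), Clmp, an adhesion molecule (0.262), and Dtx2, a ubiquitin ligase (0.266), and 0 genes came within 0.2. Dtx2 read 9.88 and 10.19 in LPS-treated Tpl2-deficient and 11.05 and 11.12 in wild-type cells given LPS, while the unstimulated arrays read 8.59 and 8.64 without Tpl2 and 8.87 and 8.94 with it. Dtx2 was picked for its likeness over these same arrays, so its sharing the order of the 4 Map3k8 groups is no separate result. Its genotype step at rest was smaller. Sema3c lay under the array median outside the LPS-treated wild-type arrays, at 4.21 to 5.86. For Map2k1 the closest were Wdr37 (0.06), Ago3, an Argonaute protein (0.064), and Ankrd17 (0.07), and 195 genes came within 0.2. For Ksr1, Steap2 (0.029), Rgs9 (0.031) and Chrnd (0.033) came first, but 6335 genes lay within 0.2 of its nearly flat profile, so that the names carry little information.

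The genes upstream of Tpl2, from the LPS receptor to IKK, were read as a list of 17 genes of which 15 were measured. LPS raised 7 and lowered 6 in Tpl2-deficient cells, and raised 8 and lowered 5 in wild-type cells. Under LPS 2 were higher and 4 lower in Tpl2-deficient than in wild-type cells, with a median of -0.14, and at rest 0 of 15 differed (0.5% of all genes did). Over all genes, LPS changed 41.8% in Tpl2-deficient and 52.2% in wild-type cells, and 13.7% differed between the genotypes under LPS. The difference of the LPS responses passed for 8.59% of all genes. The counts of this list and of those below are to be read beside these shares. Tlr4, the receptor itself, read 7.93 and 8.23 in LPS-treated Tpl2-deficient cells, against 9.54 and 9.46 in wild-type cells. That difference was -1.42 ± 0.12 (adjusted p = 1.19e-05), or -0.95 with the mean of its probe sets (adjusted p = 0.000282). Irak3, an inhibitor of the receptor's IRAK kinases, was lower by the same measure, -1.40 ± 0.14 (adjusted p = 6.61e-05). Tirap, the adaptor that brings MyD88 to the receptor, differed by -0.89 ± 0.10 (adjusted p = 8.52e-05).

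Ikbkb, which encodes IKK2, the kinase that phosphorylates p105, ran the other way. It read 12.93 and 13.06 in LPS-treated Tpl2-deficient cells, against 11.96 and 12.03 in wild-type cells, and 11.64 and 11.68 in unstimulated deficient, against 11.63 and 11.57 in unstimulated wild-type cells. The LPS-treated deficient arrays stood above all others. The difference under LPS was 1.00 ± 0.10 (adjusted p = 4.96e-05), and the LPS rise was larger in Tpl2-deficient cells (1.33 ± 0.10) than in wild-type cells (0.40 ± 0.10) by a difference of 0.94 ± 0.14 (adjusted p = 0.00207). Of the receptor-to-IKK list, the LPS response differed between genotypes for 1 gene upward and 3 downward.

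Among the 12 of 13 genes measured for ABIN1, the NF-kB family and p105 turnover, LPS raised 11 in each genotype and lowered 0 in Tpl2-deficient and 1 in wild-type cells, with medians of 1.72 in Tpl2-deficient and 1.85 in wild-type cells. Only Tnip1 differed between the genotypes under LPS in the fit reported here. At rest 0 of 12 passed, but their median difference was -0.25, beside -0.003 over all genes. Btrc of this list differed at rest by -0.53 ± 0.10 and narrowly missed the threshold (adjusted p = 0.0508). With median centring 1 of 12 was called lower at rest, and with a variance trend or array weights 2 were. Without Tpl2-deficient LPS replicate 1 the count under LPS was 1 higher and 1 lower, without replicate 2 it was 0 and 2, and without _x_at and _s_at probe sets 2 and 1. Tnip1 encodes ABIN1, the relative of ABIN2 that restrains NF-kB with the deubiquitinase A20. It read 12.12 and 12.35 in LPS-treated Tpl2-deficient cells, against 13.21 and 13.33 in wild-type cells, and 11.33 and 11.17 in unstimulated deficient, against 11.31 and 11.28 in unstimulated wild-type cells. The genotypes overlapped at rest and were apart with LPS. The LPS rise came to 0.99 ± 0.11 in Tpl2-deficient and 1.98 ± 0.11 in wild-type cells, and the difference of the responses, -0.99 ± 0.16, passed (adjusted p = 0.00307). Tnip1 was thus lower in LPS-treated deficient cells by 1.03 ± 0.11 (adjusted p = 9.73e-05). Tnip2 was lower by 0.46 ± 0.11, a call that held in 13 of 20 settings. Tnip3, on the same list as Tnip1, was not analysed. The A20 gene Tnfaip3 rose by 3.44 ± 0.10 in Tpl2-deficient and 3.57 ± 0.10 in wild-type cells, and its genotype difference under LPS was -0.14 ± 0.10 (adjusted p = 0.5).

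The RAF kinases, RAS genes and scaffolds that feed MEK by the other route gave 13 measured genes of 17. LPS raised 2 and lowered 6 in Tpl2-deficient cells, and raised 1 and lowered 9 in wild-type cells, with a median of -0.31 in Tpl2-deficient and -0.40 in wild-type cells. In Tpl2-deficient cells it raised 1 and lowered 8 on the spike-in scale, and 1 and 4 without either unstimulated Tpl2-deficient replicate; in wild-type cells repeated quantile normalization gave 2 and 7. Pebp1, an inhibitor of RAF, changed by -0.57 ± 0.10 in Tpl2-deficient and -0.92 ± 0.10 in wild-type cells (adjusted p = 0.000504 and 9.2e-06), and the endosomal MEK scaffold Lamtor3 by -0.51 ± 0.10 in Tpl2-deficient and -0.62 ± 0.10 in wild-type cells (adjusted p = 0.00111 and 0.000204). Between the genotypes under LPS, where 13.7% of all genes were called, 2 of 13 had a higher and 0 a lower level without Tpl2. That count was 1 when any unstimulated array or either wild-type LPS array was left out, and 3 higher with 2 lower without Tpl2-deficient LPS replicate 2. Of these, Sos1, which loads RAS with GTP, differed by 0.76 ± 0.11 (adjusted p = 0.000885) on its brightest probe set, but by 0.21 with the mean of its probe sets (adjusted p = 0.245). At rest 0 of 13 differed.

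Downstream, 9 of 12 ERK substrate kinases and factors were measured. LPS raised 1 and lowered 3 in Tpl2-deficient cells, and raised 0 and lowered 6 in wild-type cells. The wild-type change of Creb1, on this list, spanned -0.661 to 0.331 over the settings, so its direction was not stable. When the probe sets were averaged, LPS raised 2 and lowered 4 in Tpl2-deficient cells, and raised 2 and lowered 5 in wild-type cells. With the spike-ins as the scale it raised 0 and lowered 6 in Tpl2-deficient cells, and without Tpl2-deficient unstimulated replicate 1 it raised 0 and lowered 2. Mknk2, a kinase that phosphorylates the translation factor eIF4E, had the largest change of the list in both genotypes, -3.79 ± 0.11 in Tpl2-deficient and -4.01 ± 0.11 in wild-type cells (adjusted p = 3.28e-10 and 2.17e-10), or -2.50 in Tpl2-deficient and -2.52 in wild-type cells in the settings where it was smallest. Under LPS 3 of 9 had a higher and 0 a lower level without Tpl2, and 1 of 9 when either wild-type LPS replicate was left out. Rps6ka5, the nuclear kinase MSK1, read 7.95 and 8.57 in LPS-treated Tpl2-deficient cells, against 7.13 and 7.21 in wild-type cells (1.09 ± 0.17, adjusted p = 0.0012).

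The feedback and target genes of ERK were the list with the most genotype calls under LPS. All 21 were measured, and 15 were lower and 0 higher in LPS-treated Tpl2-deficient cells, with a median of -1.42 beside 0.02 over all genes; 13 to 15 were lower in every setting run, and 15 and 14 without Tpl2-deficient LPS replicate 1 or 2. At rest 1 was higher and 1 lower: Egr1 by 0.81 ± 0.12 (adjusted p = 0.0107) and Egr2 by -0.64 ± 0.11 (adjusted p = 0.0338). The Egr1 call held in 15 and the Egr2 call in 10 of 19 other settings, and both were lost with only the arrays compared, with the 2-fold minimum and without unstimulated wild-type replicate 1, Tpl2-deficient replicate 1 or Tpl2-deficient replicate 2. LPS raised 3 and lowered 12 of the 21 in Tpl2-deficient cells, and raised 9 and lowered 5 in wild-type cells, a split of 6 and 6 on the spike-in scale and of 10 and 3 with repeated quantile normalization. The difference of the responses passed for 12, all with the lower value in Tpl2-deficient cells. Spred1, an inhibitor of RAS signalling to RAF, read 11.15 and 11.27 in LPS-treated Tpl2-deficient cells, against 12.40 and 12.46 in wild-type cells (-1.22 ± 0.11, adjusted p = 2.61e-05). Dusp4, a nuclear ERK phosphatase, read 6.17 and 6.84 in LPS-treated Tpl2-deficient cells, against 9.65 and 9.68 in wild-type cells; the mean was 8.94-fold lower in deficient cells and lay there at the array median. Dusp6, the cytoplasmic ERK phosphatase, was 8.26-fold lower, with a mean under the array median in deficient cells. Calls of presence over background were not used here, and RMA narrows differences of dim probe sets. The list was chosen with earlier results of these arrays known, and is no independent evidence of its direction.

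**Figure D4:**
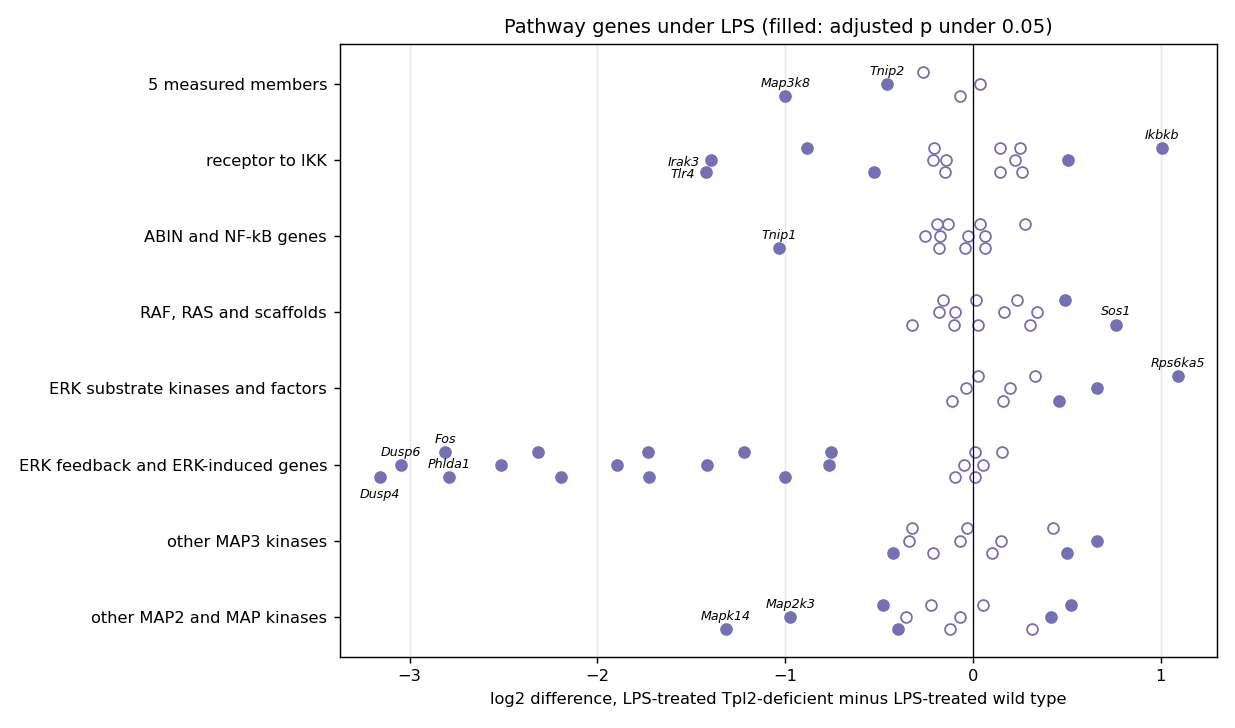
Log2 difference of LPS-treated Tpl2-deficient minus LPS-treated wild-type cells for each measured gene (points) of the members and of 7 pathway lists; filled points have an adjusted p under 0.05, and the vertical line marks 0. The ERK feedback list holds 15 genes past the threshold, all lower, with Dusp4, Dusp6, Fos and Phlda1 farthest down, while Ikbkb and Rps6ka5 lie near 1 on the other side.

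The kinases parallel to Tpl2 and MEK moved in both directions. Of 11 other MAP3 kinases, all measured, LPS raised 0 and lowered 7 in Tpl2-deficient cells and raised 1 and lowered 7 in wild-type cells, with a median of -0.73 in Tpl2-deficient and -0.91 in wild-type cells, whereas Map3k8 rose in both. Map3k1, which acts on the JNK route, changed by -1.68 ± 0.11 in Tpl2-deficient and -2.07 ± 0.11 in wild-type cells (adjusted p = 2.34e-07 and 4.08e-08). Under LPS 2 had a higher and 1 a lower level without Tpl2, and the LPS response differed for 0 of 11 (8.59% of all genes). The genotype counts rest on single arrays: they were 0 and 0 without either wild-type LPS replicate, and 1 higher and 3 lower without Tpl2-deficient LPS replicate 2. The LPS response differed for 2 without Tpl2-deficient LPS replicate 1 and for 1 without replicate 2.

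Of 12 measured MAP2 and MAP kinases outside the route of MEK1 and MEK2, 2 were higher and 4 lower in LPS-treated Tpl2-deficient cells, but 0 and 2 without either wild-type LPS replicate. LPS raised 4 and lowered 5 in each genotype, and at rest 0 differed. Mapk14, the p38 alpha kinase, read 9.49 and 9.79 in LPS-treated Tpl2-deficient cells, against 10.98 and 10.93 in wild-type cells (-1.31 ± 0.12, adjusted p = 1.89e-05); with the mean of its probe sets the difference was -0.41 (adjusted p = 0.00874). Map2k3, which activates p38, read 9.68 and 10.04 in LPS-treated Tpl2-deficient cells, against 10.82 and 10.84 in wild-type cells (-0.97 ± 0.12, adjusted p = 0.000278). The mRNAs of Map2k3 and Mapk14 were thus lower in LPS-treated deficient cells, while those of Map2k1 and Map2k2 did not pass the test.

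The arrays also differed in measures of RNA and scale. The spike-in mean was 11.80 in LPS-treated Tpl2-deficient, 11.83 in LPS-treated wild-type, 11.60 in unstimulated deficient and 11.69 in unstimulated wild-type arrays, so that LPS changes shift downward when arrays are put on that scale. The Actb signal at the 3' end exceeded that at the 5' end by 0.65 in LPS-treated deficient and 0.51 in LPS-treated wild-type arrays, and by 0.88 in unstimulated deficient and 0.74 in unstimulated wild-type arrays. The summed log2 level of the 10 macrophage markers was 129.7 to 131.0 in LPS-treated deficient and 132.2 to 132.3 in LPS-treated wild-type arrays, and 128.6 to 129.1 in unstimulated deficient and 129.2 to 129.3 in unstimulated wild-type arrays. Single markers moved in opposite directions: with LPS, Mertk averaged 11.26 in deficient and 10.26 in wild-type cells, and Msr1 12.12 and 13.30. Of the 10, 1 was called higher and 2 lower in LPS-treated deficient cells (13.7% of all genes were called). The part of these measures in the results was not tested, apart from the spike-in scale. Fewer cells of a kind and less RNA per cell cannot be told apart in such arrays.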

How the data were processed

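RNA of 8 macrophage cultures, 2 for each genotype and condition, was hybridised to Affymetrix mouse arrays. The deposited values are log2 intensities; GCOS and RMA are named per the submitters' processing notes, and versions, the chip definition file and a genome build are not given in the sources used here. No value was filtered out or normalized again. Of 45101 probe sets, 34945 listed exactly 1 symbol and were used, 64 are controls, and of the others 932 listed several symbols and 9160 none in the annotation used.

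Groups were compared with limma 3.58.1 in R 4.3.3 (lmFit, 4 group means, eBayes, two-sided; 4 residual and 6.87 prior degrees of freedom) in 5 comparisons, with Benjamini-Hochberg adjustment over all genes. The code was tested on simulated data. Members and gene lists were chosen with earlier results of these data known. Named were all members, up to 4 genes past the threshold per list and comparison, 3 genes of closest profile, and Tnip1, Ikbkb, Dusp6, Fos and Egr1; Lamtor3, Spred1, Tnfaip3 and Egr2 fall under the same rule. Alternatives were the mean of probe sets, each probe set alone, no _x_at or _s_at probe sets, repeated quantile normalization, centring on the median or on the spike-ins, a filter on low values, a variance trend, a robust prior, weights per array, a fit of only those arrays being compared, a minimum of 2-fold, the replicate number as a block and leaving out each array. Promoter windows are RefSeq's.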

Additional observations from a re-analysis of the deposited data

Results flagged for a closer look

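The LPS response of 14 pathway genes outside the members, taken as up to 4 per list and Tnip1, differed between the genotypes by limma's test of that difference. These 14 were picked because they passed, so their number is no result. Over all genes 8.59% passed and of the 5 members 0 did, which with 5 genes does not set the members apart. Given as the response of Tpl2-deficient minus that of wild-type cells, on the log2 scale, 4 ERK feedback or target genes stood lowest: Dusp6 at -3.47, Fos at -2.74, Dusp4 at -2.72 and Egr1 at -2.54. The Dusp6 value rests on a mean of LPS-treated deficient cells under the array median, and the Dusp4 value on one at it. Of the receptor and its proximal signalling genes, Tlr4 was at -1.53, Irak3 at -1.41 and Tirap at -0.78, and the IKK2 gene Ikbkb was at 0.94. Of the parallel kinases, Mapk14 was at -1.37, Map2k3 at -0.80 and Map2k5 at 0.68. The ABIN1 gene Tnip1 was at -0.99, Rps6ka5 at 0.87 and Sos1 at 0.74. The calls held in 13 of 18 settings for Map2k3, 10 of 18 for Map2k5, 11 of 18 for Rps6ka5 and 12 of 18 for Sos1, and in all 18 for the other 10 genes. These 18 leave out the 2-fold minimum, with which 7 of the 14 calls were lost: those of Tnip1, Ikbkb, Tirap, Map2k3, Map2k5, Rps6ka5 and Sos1.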

How the results depend on the processing

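The calls of Map3k8 in the 4 comparisons of groups, and of Map2k1 for LPS, held in every setting except that both genotype differences of Map3k8 (-1.0 with LPS, -0.998 at rest) fall at the 2-fold minimum and did not exceed it. Members called between genotypes at rest numbered 1, and 0 with the 2-fold minimum. Under LPS 2 were called, 1 with the spike-ins as scale, with array weights or with only the arrays compared, 0 with the 2-fold minimum, and 1 to 3 with single arrays left out. LPS in wild-type cells called 4 members, 2 with the mean of probe sets and 2 with the 2-fold minimum, and 2 to 4 with single arrays left out. The difference of the LPS responses called 0, and 0 to 1 with single arrays left out (Map2k1 without Tpl2-deficient LPS replicate 2). LPS in Tpl2-deficient cells called 2 in every setting with 1 value per gene, and Ksr1 passed as well on its dimmest probe set alone, where it was lower. For Tnip2, repeated quantile normalization brought the wild-type LPS change past the threshold (0.33, adjusted p = 0.013).

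Signs turned only for differences near 0 or on another probe set. For Map3k8 the difference of the LPS responses became 0.000 with quantile normalization and 0.036 with median centring, and spanned -0.134 to 0.131 with single arrays left out. Tnip2 turned to -0.020 for LPS in wild-type cells with the spike-ins and to 0.020 in Tpl2-deficient cells with quantile normalization. Map2k1 at rest turned to -0.027 with median centring. With single arrays left out, it spanned -0.043 to 0.062, Map2k2 between genotypes under LPS -0.154 to 0.010, and Ksr1 in the same comparison -0.040 to 0.110. Ksr1 between genotypes under LPS turned to -0.039 with the mean of probe sets and -0.218 on its dimmest probe set; its LPS change turned to -0.059 in Tpl2-deficient cells with the spike-ins, and to -0.315 in Tpl2-deficient and -0.046 in wild-type cells on that probe set. On the second Map2k2 probe set the LPS change came to 0.009 in Tpl2-deficient and 0.042 in wild-type cells and the difference of the responses -0.033. The cause was not tested.

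The labels do not say what the replicate numbers pair. Deviations of same-numbered arrays correlated at -0.152 to 0.09 between the groups. Such values cannot show whether same-numbered arrays shared animals or a preparation. With the replicate block, members called numbered 1 at rest, 2 under LPS, 4 for LPS in wild-type and 2 in Tpl2-deficient cells and 0 for the difference of the responses, as without it. A crossed pairing, added after seeing the data, gave 2 members and 7573 genes for LPS in Tpl2-deficient cells, against 2 and 7596 without a block.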
